A study of Ovis aries and Capra hircus and Bos taurus with 26 samples.

Results

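Long stretches of the cattle, sheep and goat autosomes held no peak of either of 2 active histone marks in liver, and these stretches are described here. H3K27ac is acetylation of histone H3 at lysine 27 and is found at promoters and enhancers in use. H3K4me3 is trimethylation at lysine 4 and is found at promoters, most strongly those of transcribed genes. A stretch of chromatin without either mark lacks the usual signs of active regulatory DNA in the cells sampled. Mammalian chromosomes are known to alternate between gene-rich stretches dense in such marks and gene-poor stretches in which they are rare.

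The members were chosen by their measured values. Within each species, the intervals of all peak lists of both marks were merged, and every spacing of at least 500 kb between neighbouring merged intervals of the same autosome was kept as a gap. This gave 1959 gaps among 176413 spacings in the 3 species. In cattle, 649 of 55123 spacings were gaps (1.18%). In sheep, 714 of 59010 were gaps (1.21%), and in goats 596 of 62280 (0.957%). These shares follow from the rule and are given as a description.

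The libraries came from chromatin immunoprecipitation with sequencing (ChIP-seq) on frozen liver of healthy adult animals, collected after death, with no treatment. They were Holstein cattle, Texel sheep and Yunnan black goats, with 3 animals of each (A, B and C). There were 17 peak lists, 8 for H3K27ac and 9 for H3K4me3, 1 list per library. The H3K27ac lists of cattle came from animals B and C, so cattle gaps rest on 5 libraries and those of sheep and goats on 6 each. The 9 input samples had no list. Bulk tissue was used, in which a mark carried by few cells can be missed. Liver markers were not checked, since genes of these builds were not used here. Sequence, genes and unresolved bases inside the gaps were therefore not analysed here, and their part in the results was not tested.

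Gaps covered a large part of the autosomes (each span being taken from the first to the last merged interval of a chromosome). In cattle they added up to 609.9 Mb, or 24.6% of the span of 2484 Mb. Sheep gaps summed to 650.2 Mb (24.5% of 2652 Mb), and goat gaps to 551.6 Mb (22.4% of 2462 Mb). The median gap measured 778 kb in cattle, 775 kb in sheep and 770.4 kb in goats, whereas the median of all spacings was 11.9, 12.3 and 10.9 kb, respectively. The interquartile range of the gap lengths ran from 594 to 1108 kb in cattle, from 601 to 1053 kb in sheep and from 592 to 1075 kb in goats. At least 1 Mb was reached by 197 cattle, 208 sheep and 177 goat gaps, and at least 2 Mb by 31, 24 and 22. The 3 species thus had similar gap lengths, and sheep had the most gaps.

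The members at the edge of the rule lay very close to it. The shortest cattle gaps measured 500178 bp (chromosome 10, from 70915303 to 71415480) and 502314 bp (chromosome 18, from 38524622 to 39026935), and the longest cattle spacings left out measured 499566 and 499263 bp, on chromosomes 4 and 11. In sheep, the values inside were 500465 and 500720 bp (chromosomes 9 and 4) and those outside 498474 and 498018 bp (chromosomes 3 and 21). In goats, they were 500673 and 500696 bp (chromosomes 13 and 22) inside and 499746 and 498940 bp (chromosomes 7 and 6) outside.

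The longest gaps were several times as long as the median. The longest cattle gap (ARS-UCD1.2) ran on chromosome 24 from 14788210 to 19003281, which is 4.22 Mb. Both of its border intervals carried H3K27ac of both cattle libraries of that mark and no H3K4me3, with highest fold enrichments of 4.66 on the left and 3.01 on the right. The next cattle gaps were on chromosome 12 from 42183956 to 45807509 (3.62 Mb), chromosome 9 from 3538915 to 6876905 (3.34 Mb), chromosome 20 from 42930446 to 46056154 (3.13 Mb) and chromosome 15 from 67699350 to 70587325 (2.89 Mb). The longest of all was a sheep gap (Oar_rambouillet_v1.0) on chromosome 9 from 8354876 to 13189265, with 4.83 Mb. Its left border interval was found in 4 of 6 libraries, 1 of H3K27ac and 3 of H3K4me3, and its right one in 1 H3K27ac library at a fold enrichment of 3.56. Sheep gaps of 4.11 Mb (chromosome 6 from 80516502 to 84622345), 3.24 Mb (chromosome 18 from 51317474 to 54556853), 3.21 Mb (chromosome 4 from 1070130 to 4275852) and 2.99 Mb (chromosome 17 from 21890200 to 24881991) followed. The 5 longest goat gaps (ARS1) were of nearly the same length. They were on chromosome 16 from 14207324 to 17250625 (3.04 Mb), chromosome 14 from 84032718 to 86988080 (2.96 Mb), chromosome 12 from 78316500 to 81266884 (2.95 Mb), chromosome 24 from 14773593 to 17715673 (2.94 Mb) and chromosome 14 from 28366224 to 31297087 (2.93 Mb). Around the longest gap of each species, many peaks recurred in several libraries, while several borders rested on 1 or 2 libraries.

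**Figure D1:**
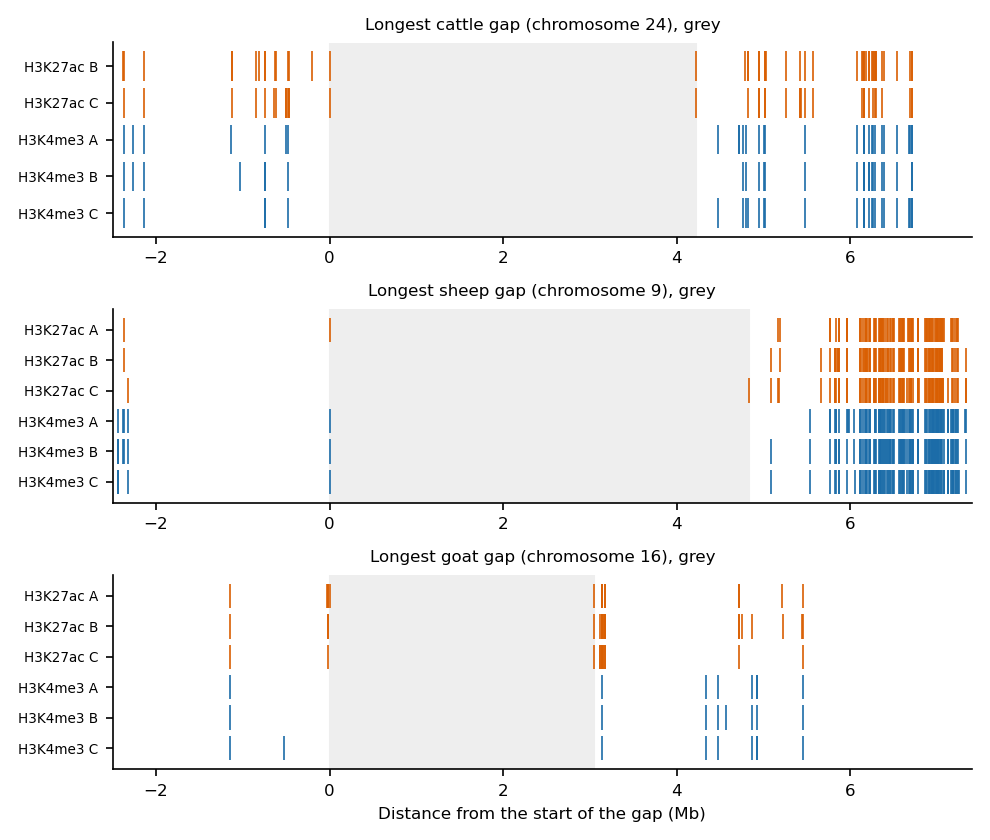
Peaks of every library around the longest gap of each species, by distance from the start of the gap in Mb; each tick is a peak, each row a library, orange for H3K27ac and blue for H3K4me3, and the grey block is the gap. The blocks of 4.22 Mb (cattle), 4.83 Mb (sheep) and 3.04 Mb (goat) hold no tick in any row, and the right border in sheep is drawn in 1 row alone.

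The intervals that border a gap were often weakly replicated. In cattle, 477 of 1205 border intervals (39.6%) were present in 1 library, against 32.9% of all merged intervals, and 17.8% were present in all libraries, against 26.9%. In sheep, 38.5% of 1336 border intervals were present in 1 library, against 30.8% of all intervals, and 12.8% were in all libraries, against 25.8%. Goats gave 38.1% of 1105 border intervals against 29.6%, and 14.2% against 25.8%. The border thus had a larger share of single-library intervals and a smaller share of intervals found everywhere than the autosomes did. The rule chose these intervals by their isolation, so the shares carry no test.

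The kind of mark at the borders differed from that of all intervals. H3K4me3 without H3K27ac made up 43.1% (cattle), 37.4% (sheep) and 29.7% (goats) of border intervals, compared with 15.8%, 16.2% and 10.3% of all intervals. Intervals with both marks, which is the usual state of an active promoter, made up 24.1%, 25.2% and 24.3% of border intervals and 36.1%, 39.8% and 37.6% of all intervals. H3K27ac without H3K4me3, the usual state of an active enhancer, made up 32.9%, 37.4% and 46.1% at the borders and 48.1%, 44.1% and 52.1% overall. Borders were also narrower, with a median width of 463 bp in cattle, 478 bp in sheep and 475 bp in goats against 575, 562 and 555 bp. Their median highest fold enrichment was 5.27, 5.31 and 5.22, above the 4.45, 4.65 and 4.49 of all intervals, whereas their median highest −log10 q was lower (8.56, 8.11 and 8.21 against 9.86, 9.11 and 9.14). These values pool both marks and all libraries. Median fold enrichments of single libraries were 6.51 to 7.52 for H3K4me3 and 3.67 to 4.03 for H3K27ac, and the mix of marks differed at the borders. Whether border peaks were stronger within a mark was not tested.

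Some gaps followed each other with a single interval between them. Cattle had 93 such lone intervals, sheep 92 and goats 87. H3K4me3 alone was the state of 60.2% (cattle), 60.9% (sheep) and 48.3% (goats) of them, a larger share than at the borders as a whole. In 1 library alone were 47.3%, 42.4% and 39.1% of them. The longest series of neighbouring gaps held 4 gaps in each species. In cattle it covered 6.07 Mb of chromosome 6 from 72610222 to 78678066, and its lone intervals were found in 1, 3 and 2 libraries. The series on sheep chromosome 15 ran from 8999288 to 13930481 (4.93 Mb), with lone intervals in 1, 4 and 2 libraries. The goat one ran over 6.26 Mb of chromosome 20 from 42491442 to 48756247, with intervals in 2, 6 and 1 libraries. Only the middle interval of the goat series was thus present in all libraries of its species. By length, the longest sheep series had 2 gaps, on chromosome 9 from 6037265 to 13189265 (7.15 Mb), and included the longest sheep gap.

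The surroundings of gaps were also thin in intervals. Within 100 kb outside a gap, where the border interval itself is counted, merged intervals numbered 25.1 per Mb in cattle, 24.9 in sheep and 26.02 in goats. From 100 to 250 kb, the density was 12.7 per Mb in cattle and in sheep and 13.8 in goats, below the autosomal 22.2, 22.3 and 25.3 per Mb. It rose with distance and still lay below the autosomal level at 1 to 2 Mb, with 18.04, 17.8 and 19.3 per Mb.

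The question of how far the gaps depend on the number of libraries was addressed by counting long stretches in each library alone. In cattle, H3K27ac left 852 (animal B) and 869 (C) stretches of at least 500 kb without a peak, and H3K4me3 left 901 (A), 987 (B) and 936 (C). All H3K27ac values of cattle lay below all H3K4me3 values. In sheep, the numbers were 954, 997 and 953 for H3K27ac and 991, 986 and 977 for H3K4me3 in animals A, B and C, and these overlapped. In goats, they were 792, 769 and 792 for H3K27ac and 944, 863 and 866 for H3K4me3, with no overlap. Averaged over species, H3K27ac libraries had fewer (mean log2 difference of H3K27ac minus H3K4me3 -0.11, exact permutation test within species, two-sided, p = 0.002, adjusted p = 0.00651 over the 5 tests of this kind). H3K27ac was lower in 7 of 8 animals that had both marks. The H3K27ac lists also held more autosomal peaks, between 35693 and 48735, than the H3K4me3 lists, between 23483 and 29469. In goats A, B and C, the autosomes held 23483 of 31491, 26952 of 34312 and 27474 of 38458 H3K4me3 peaks. For H3K27ac, they held 40457 of 42283, 48735 of 50842 and 43705 of 45810. The part of the peaks outside the autosomes in the difference in long stretches was not tested. With the 20000 strongest peaks of every list, the difference turned to 0.0368 (exact permutation, p = 0.011), with −log10 q of at least 5 it was -0.0292 (exact permutation, p = 0.294), and with a minimum of 1 Mb it was -0.0514 (exact permutation, p = 0.257). With a minimum of 250 kb it was -0.19 (exact permutation, p = 0.00025). The lower number in H3K27ac thus passed the test for the lists as deposited at 500 and 250 kb, and not with stricter peaks, lists of equal size or longer stretches.

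Merging the marks of an animal removed many of these stretches. Both marks together left 745 gaps in cattle B (731.9 Mb) and 745 in cattle C (744.7 Mb), 853, 868 and 840 in sheep A, B and C, and 730, 675 and 706 in goats A, B and C. The sheep animals lay above all others, and the goats below both cattle. The species differed (F = 40.4, exact permutation over 8 animals, p = 0.00714, adjusted p = 0.00893). Means were 745 ± 0 in cattle (SD, n = 2), 854 ± 14.01 in sheep (n = 3) and 704 ± 27.6 in goats (n = 3). Per 1000 Mb of span, which takes the longer sheep autosomes into account, sheep had 322 ± 5.44, cattle 299.97 ± 0.021 and goats 286 ± 11.2 (exact permutation, p = 0.00714), so the order was the same. Each species is 1 breed with its own genome build, and species, breed and build cannot be told apart here.

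**Figure D2:**
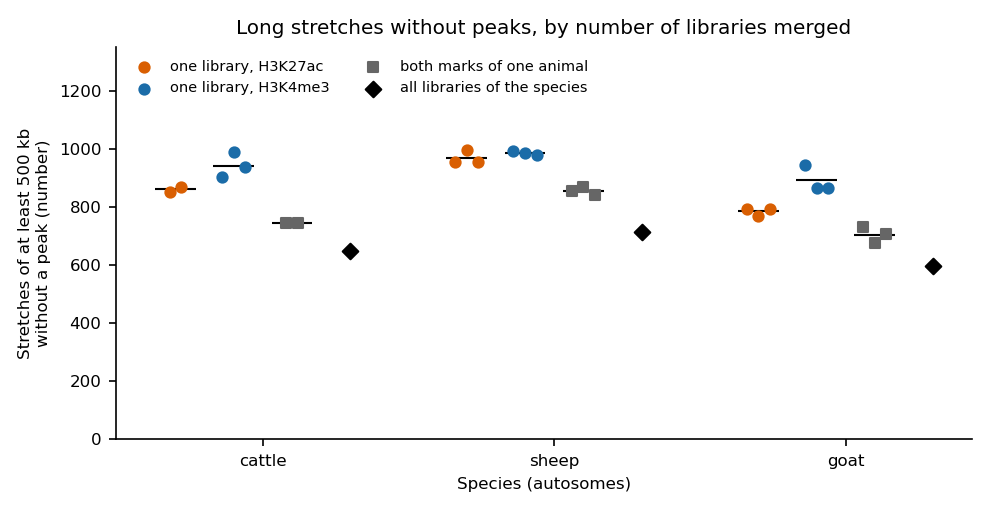
Number of autosomal stretches of at least 500 kb without a peak in each species, for single libraries (orange H3K27ac, blue H3K4me3), for both marks of 1 animal (grey squares) and for all libraries of the species (black diamonds); black lines are means of the points. The number falls at each step of merging in each species, to 649 in cattle, 714 in sheep and 596 in goats, and the goat points lie lowest once the marks are merged.

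Adding animals reduced the gaps further. In goats, sets of 2 animals left 636, 645 and 622 gaps and 3 animals left 596, with 551.6 Mb. In sheep, sets of 2 animals left 784, 755 and 763, and 3 animals left 714. In cattle, animals B and C, which had both marks, left 674 gaps, and adding the H3K4me3 list of animal A brought this to 649. Each added animal thus lowered the number in each species.

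Each mark alone left more gaps than both marks merged. All H3K27ac libraries of cattle together left 803 gaps, and those of H3K4me3 left 850. In sheep, the numbers were 886 and 895, and in goats 691 and 824. Of the cattle gaps free of H3K27ac, 116 (14.4%) also held no H3K4me3 interval, and the others held H3K4me3, with a median of 2 intervals over all 803. For sheep and goats, 15.8% and 23.2% of the gaps free of H3K27ac held no H3K4me3. Conversely, 28.7%, 25.3% and 16.3% of the gaps free of H3K4me3 in cattle, sheep and goats held no H3K27ac interval. These stretches took in 6.63%, 5.66% and 3.87% of all merged H3K4me3 intervals of the species, inside stretches that covered 34.96%, 34.1% and 28.6% of the span without H3K27ac. Most single-mark gaps thus held a few intervals of the other mark.

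Whether the gaps hold in animals that were not used to find them was tested by leaving out each animal in turn. The gaps were rebuilt from the other animals of the species, and the peaks of the left-out animal whose midpoints fell inside were counted. Inside the gaps, H3K27ac peaks of the left-out animal numbered 0.296 per Mb in cattle B, 0.389 in cattle C, 0.293, 0.208 and 0.334 in sheep A, B and C, and 0.210, 0.490 and 0.278 in goats A, B and C. The same libraries had between 13.5 and 19.8 peaks per Mb over the autosomal span. The values for H3K4me3 were 0.246, 0.237 and 0.131 per Mb in cattle A, B and C, 0.159, 0.221 and 0.241 in sheep and 0.0585, 0.116 and 0.192 in goats, against 9.51 to 11.2 per Mb over the span. All 17 libraries had at most 2.49% of their own autosomal density inside the gaps.

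Averaged over the marks of an animal, the density inside gaps lay between 0.893% (goat A) and 2.33% (cattle A, where H3K4me3 alone was measured) of the autosomal density. The mean log2 ratio over the 9 animals was -5.85, and all 9 were below 0 (exact sign-flip test, two-sided, p = 0.00391, adjusted p = 0.00651, the smallest p that 9 animals allow). The 3 species had means of -5.60 ± 0.24 (cattle, SD, n = 3), -5.71 ± 0.19 (sheep) and -6.22 ± 0.50 (goats), and the test of a difference between them gave p = 0.0571 (exact permutation, adjusted p = 0.121 over 4 such tests). A stricter reference was also used. Against peaks that overlapped no interval of the other animals and lay in spacings under 500 kb, the density inside gaps was still lower, at 7.23% to 12.5% of the reference in H3K27ac and 19.5% to 60.4% in H3K4me3 (mean log2 ratio -2.46, lower in 9 of 9 animals, exact sign-flip test, p = 0.00391).

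The marks did not pass the test of a difference in this depletion when set against all peaks and gaps of at least 500 kb. The log2 density ratio of H3K27ac minus that of H3K4me3 was 0.32 over 8 animals (exact sign-flip test, p = 0.211, adjusted p = 0.211), with values from -0.38 in cattle B to 1.21 in goat B. With a minimum gap of 250 kb, it was 0.55 and passed (exact sign-flip test, p = 0.0313). Set against the peaks away from other animals' intervals, the difference was -1.43 and below 0 in 8 of 8 animals (exact sign-flip test, p = 0.00781, adjusted p = 0.00955 over 11 added tests). H3K27ac lists held 3200 to 9629 such peaks, and H3K4me3 lists 301 to 1865. Counting peaks at least 50 kb inside the gap edges alone gave -0.0322 for the comparison with all peaks (p = 0.891, exact). The call and the direction of the difference between marks therefore depended on the gap minimum and on the peaks compared.

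**Figure D3:**
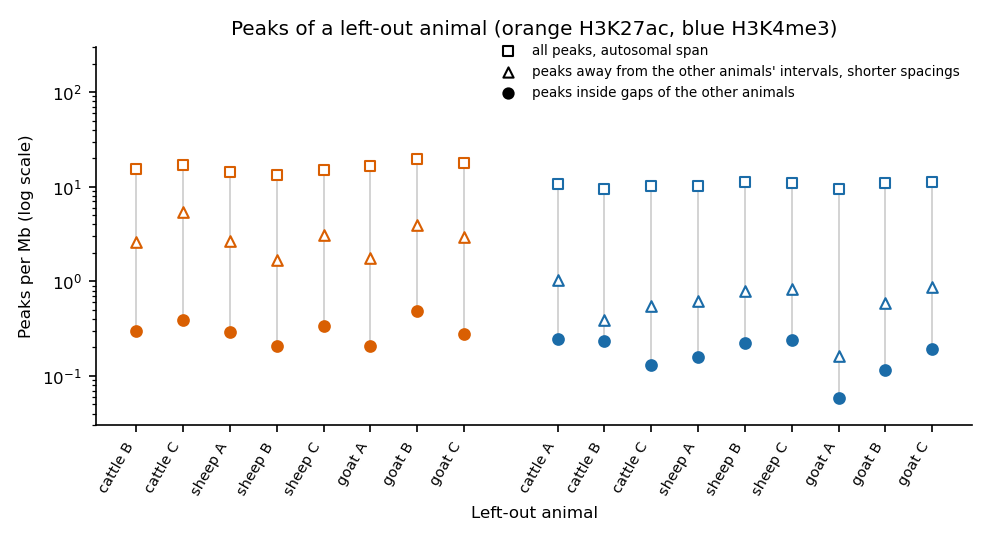
Peaks per Mb (log scale) of each left-out animal: filled circles, inside gaps rebuilt from the other animals; open triangles, peaks that overlap no interval of the other animals, in spacings under 500 kb; open squares, all peaks over the autosomal span. In all 17 libraries the circle lies lowest, at 0.0585 to 0.490 peaks per Mb, against 9.51 to 19.8 for the squares.

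The peaks that did appear inside gaps were few and spread over many of them. A left-out H3K27ac library placed 122 to 299 peaks in gaps (median 206) and reached 15.6% to 30.9% of the gaps. A left-out H3K4me3 library placed 34 to 177 peaks (median 116) and reached 5.14% to 19.9% of the gaps. H3K27ac peaks lay nearer the edges, with 34.7% to 53.1% within 50 kb of a gap edge, against 11.7% to 44.1% of H3K4me3 peaks. The difference within animals was 15.9 ± 11.1 percentage points (SD, n = 8) and positive in 8 of 8 animals (exact sign-flip test, p = 0.00781, adjusted p = 0.00955).

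Peak strength inside the gaps differed by mark. The median fold enrichment of left-out H3K27ac peaks inside gaps ranged from 3.82 to 4.04, and that of all autosomal peaks of the same libraries from 3.67 to 4.03. For H3K4me3, it was 4.34 to 4.93 inside gaps and 6.51 to 7.52 over all peaks, with no overlap between these ranges. Averaged over marks, the log2 ratio of the medians was -0.32 and below 0 in 9 of 9 animals (exact sign-flip test, p = 0.00391, adjusted p = 0.00651). For H3K4me3 alone it was -0.60 ± 0.08 (SD, n = 9, exact sign-flip test, p = 0.00391, adjusted p = 0.00955), and for H3K27ac alone 0.02 ± 0.04 (n = 8, exact, p = 0.117). The marks differed by 0.62 ± 0.07 and in the same direction in 8 of 8 animals (exact sign-flip test, p = 0.00781, adjusted p = 0.00955). Compared with peaks away from other animals' intervals in shorter spacings, however, peaks inside gaps were stronger, by 0.19 on the log2 scale over the marks and in 9 of 9 animals (exact sign-flip test, p = 0.00391). That reference had median fold enrichments from 3.11 to 3.41 (H3K27ac) and from 3.99 to 4.46 (H3K4me3).

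The marks of a left-out animal coincided less often inside gaps than over all its H3K4me3 peaks. Between 0.613% (cattle B, 1 of 163) and 14.1% (goat B, 10 of 71) of its H3K4me3 peaks there were overlapped by H3K27ac of that animal, compared with 64.9% to 78.5% of all its H3K4me3 peaks. The overlapped peaks inside gaps were few, from 1 (cattle B and goat A) to 17 (sheep B) per animal. The difference was -66.0 ± 6.88 percentage points (SD, n = 8, exact sign-flip test, p = 0.00781, adjusted p = 0.00955). Against H3K4me3 peaks away from other animals' intervals in shorter spacings, of which 2.47% to 17.6% carried H3K27ac, the difference was -5.84 ± 5.10 percentage points, lower in 7 of 8 animals (exact sign-flip test, p = 0.0234, adjusted p = 0.0258). The H3K27ac peaks gave the other order in most animals. In gaps, 0.490% to 10.2% of them were overlapped by H3K4me3 of that animal, against 0.352% to 4.61% away from other animals' intervals, with the higher share in gaps in 5 of 8 animals (not tested). These shares in gaps also rest on few peaks, from 1 of 204 in cattle B to 15 of 147 in sheep B. The strongest left-out peaks, chosen after their values were seen, included a H3K4me3 peak of sheep A on chromosome 9 from 19051909 to 19052547 with a fold enrichment of 17.8. In sheep B, both marks had their strongest peak at the same place, on chromosome 16 from 17616416 to 17616868 for H3K27ac (8.41) and from 17616419 to 17616842 for H3K4me3 (14.3).

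Gaps were spread unevenly over the chromosomes. In cattle, chromosome 1 had the most (57 gaps) and chromosome 19 the fewest (6). Chromosome 1 also led in sheep (85) and goats (50), whereas sheep chromosome 11 had 4 gaps and goat chromosome 19 had 3. As a share of the span, cattle chromosomes ranged from 8.04% (chromosome 19) to 37.997% (chromosome 29), sheep ones from 4.61% (chromosome 11) to 36.8% (chromosome 10) and goat ones from 3.92% (chromosome 19) to 39.1% (chromosome 12). Cattle and goat chromosomes 19 are the counterparts of sheep chromosome 11, and chromosomes 12 are those of sheep chromosome 10. The chromosome with the lowest share was thus the same in the 3 species. Along the chromosomes, the final stretch of the span, when each was cut into 10 equal stretches, held a smaller share in gaps (17.8% in cattle, 18.8% in sheep and 19.2% in goats) than the first (29.8%, 26.4% and 23.1%). In goats, the lowest share was that of stretch 8 (18.3%). First and final follow the numbering of each build, in which 13 of 29 cattle chromosomes ran in reverse in goats. They are therefore not the same chromosome ends across species.

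Matching chromosomes had similar shares. Over 29 pairs of cattle and goat chromosomes, the share of span in gaps correlated with Pearson's r = 0.91 and Spearman's rho = 0.87. Over 26 sheep chromosomes and their counterparts, where cattle and goat chromosomes 1 and 3, 2 and 8, and 5 and 11 were joined, r was 0.84 with cattle (rho = 0.84) and 0.88 with goats (rho = 0.85). These are descriptions across chromosomes, which share libraries and the density of intervals in each species. Chromosomes 9 and 14 were paired by number between cattle and goats, although a translocation between them is known, so they are not full counterparts. Their spans were 104.5 and 82.0 Mb in cattle and 91.5 and 94.7 Mb in goats. The pairing of sheep chromosomes 8 and 9 with 9 and 14 made no allowance for it either. Chromosomes 29 in cattle (37.997%) and goats (33.6%) and 21 in sheep (28.1%) were among the pairs that differed most, and cattle 17, goat 17 and sheep 17 among those nearest, with 28.95%, 28.4% and 29.9%.

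**Figure D4:**
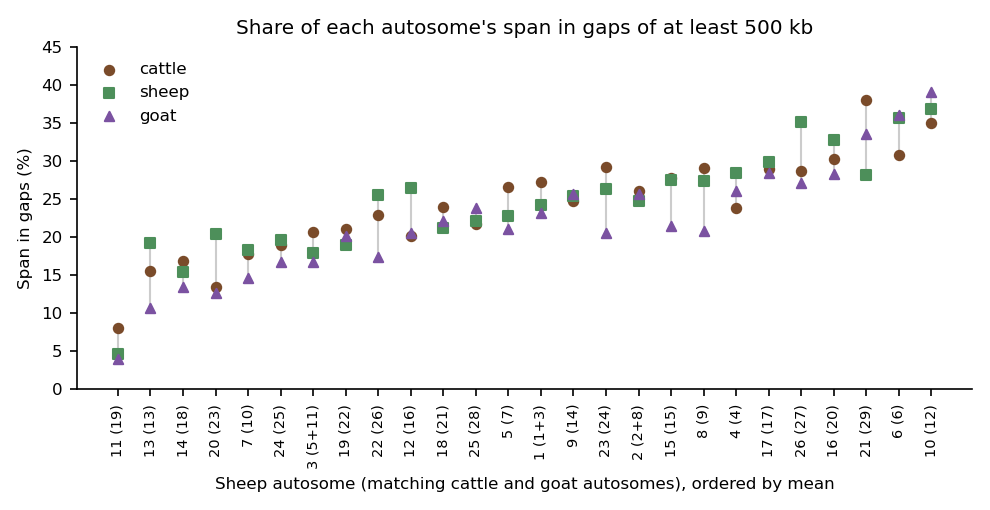
Percentage of the span in gaps for each sheep autosome (squares) and the matching cattle (circles) and goat (triangles) autosomes, ordered by the mean of the 3; grey lines join them. Sheep 11 with its counterpart 19 lies lowest, between 3.92% and 8.04%, and sheep 10 with its counterpart 12 highest, between 35.1% and 39.1%.

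Whether the gaps themselves match was examined without a genome alignment. The flanks of each gap were placed on the matching chromosome of another species by the pattern of merged intervals over 2 Mb on either side, and the inside of the gap was not used. A gap counted as matched where at least 50% of the stretch between its placed flanks lay in gaps of the other species. Stretches of 500 kb taken along the whole chromosomes and placed the same way gave the background. Only stretches that could be placed entered it, and these lay in denser parts. Their counterparts held a mean of 23.7 to 31.9 merged intervals per Mb, against 22.2 to 25.3 over the autosomes of the other species. On average 11.7% to 19.9% of a counterpart lay in gaps, against 22.4% to 24.6% of the autosomal span. The background was thus below the share of the whole autosomes in gaps. Orientation follows the numbering of the builds: 13 of the 29 cattle chromosomes ran in reverse in goats, and 4 in sheep.

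Placed gaps had gaps opposite them several times as often as the placed stretches did. Of 351 cattle gaps placed in goats, 206 were matched (58.7%, background 17.6% of 2858 stretches). Of 176 cattle gaps placed in sheep, 115 were matched (65.3%, background 17%). From goats, 231 of 319 placed gaps were matched in cattle (72.4%, background 20%) and 173 of 239 in sheep (72.4%, background 18.7%). From sheep, 86 of 125 were matched in cattle (68.8%, background 12.9%) and 116 of 198 in goats (58.6%, background 11.9%). The flanks of 54.1% of the cattle gaps could be placed in goats, and those of 17.5% of the sheep gaps in cattle, so the shares hold for the placed gaps alone. The median length of placed gaps was below that of the others in 3 comparisons (by most for cattle gaps in goats, 739 against 836 kb) and above it in the other three (by most for goat gaps in sheep, 774 against 762 kb). No test was made of these shares.

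Most counterparts held intervals at a low density. Matched counterparts, which lay mainly in gaps by definition, held 2.28 to 3.69 merged intervals per Mb in the 6 comparisons. Counterparts without any gap held 7.03 (sheep gaps in goats) to 10.6 (cattle gaps in sheep) per Mb, against 22.2 to 25.3 per Mb over the autosomes of the other species. Single ones were as dense as the autosomes or denser. This was so for 5 of 115 counterparts of cattle gaps without a gap in goats and for 2 of 34 in sheep, with up to 63.2 intervals per Mb. Longer gaps were matched more often. In cattle against goats, 81 of 180 placed gaps from 500 to 750 kb were matched, 50 of 81 from 750 kb to 1 Mb and 75 of 90 of at least 1 Mb. In goats against cattle, they were 86 of 148, 64 of 81 and 81 of 90, and in sheep against goats 40 of 98, 29 of 48 and 47 of 52. The share rose with gap length in all 6 comparisons. Placed stretches taken along the chromosomes lay opposite gaps in 13.3% to 20% of cases at 750 kb and in 14.4% to 20.8% at 1 Mb, against 11.9% to 20% at 500 kb.

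The stretches between placed flanks were longer in sheep than the gaps placed there. The length of the counterpart divided by that of the gap had a median of 1.26 for cattle gaps and 1.35 for goat gaps in sheep, whereas stretches without a gap gave 1.08 and 1.16. Between cattle and goats, the median was 1.0 in both directions (stretches without a gap, 0.98 and 1.02). Pairs of gaps found in both directions numbered 162 between cattle and goats, 64 between cattle and sheep and 89 between goats and sheep. For the paired gaps themselves, the median ratio was 1.05 for sheep over cattle (sheep longer in 35 of 64 pairs) and 1.10 for sheep over goats (58 of 89). These medians were nearer 1.0 than those of the stretches placed in sheep. For goats over cattle, the median was 1.0 (goats longer in 85 of 162), as it was for the stretches. The lengths were within a ratio of 0.9 of each other in 33.3% of the pairs of cattle and goats, 21.9% of those of cattle and sheep and 31.5% of those of goats and sheep. Across pairs, the log2 lengths correlated with r = 0.60, 0.57 and 0.60 in that order. Most pairs thus differed in length by more than this ratio.

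Some gaps were matched in both other species. Of 141 cattle gaps placed in both, 65 (46.1%) were matched in both, 44 in 1 species and 32 in neither. Of 1360 cattle stretches of 500 kb placed in both, 10.4% lay opposite gaps in both. For goats, 91 of 173 gaps (52.6%) were matched in both (background 10.3% of 1889 stretches), and for sheep 52 of 100 (background 6.75% of 1214). No test was made of these shares either. Gaps matched in both species were longer (median 879 kb in cattle, 871 kb in goats and 937 kb in sheep) than those matched in neither (579, 616 and 589 kb).

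The 3 longest matched gaps of each pair of species, sought in both directions, give examples. The cattle gap of 3.62 Mb on chromosome 12 was placed on goat chromosome 12 from 40610001 to 44260000 in reverse orientation, and 95.8% of this stretch lay in goat gaps, which were broken by 7 intervals. The largest goat gap there ran from 41930817 to 44563794 (2.63 Mb). The goat gap of 3.04 Mb on chromosome 16 was placed on cattle chromosome 16 from 14490001 to 18710000 (91.8% in gaps), and that of 2.94 Mb on chromosome 24 on cattle chromosome 24 from 14590001 to 17160000 (92.3% in gaps, the largest being the longest cattle gap). Between cattle and sheep, the cattle gap on chromosome 11 from 16154601 to 18812125 (2.66 Mb) was placed on sheep chromosome 3 from 93220001 to 96660000, of which 54.5% lay in gaps. The cattle gaps on chromosome 9 from 56754327 to 59159674 (2.41 Mb) and on chromosome 7 from 62974052 to 65274730 (2.30 Mb) were placed on sheep chromosomes 8 (92.7% in gaps) and 5 (60.6%). Between sheep and goats, the sheep gap of 3.24 Mb on chromosome 18 was placed on goat chromosome 21 from 51710001 to 53730000, with 94.9% of the counterpart in gaps. Goat gaps on chromosome 11 from 56643919 to 59484864 (2.84 Mb) and chromosome 10 from 3539307 to 5991363 (2.45 Mb) were placed on sheep chromosomes 3 and 7, with 95.6% and 89.8% in gaps. In these 9 examples, the counterparts were broken by 1 to 15 intervals.

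**Figure D5:**
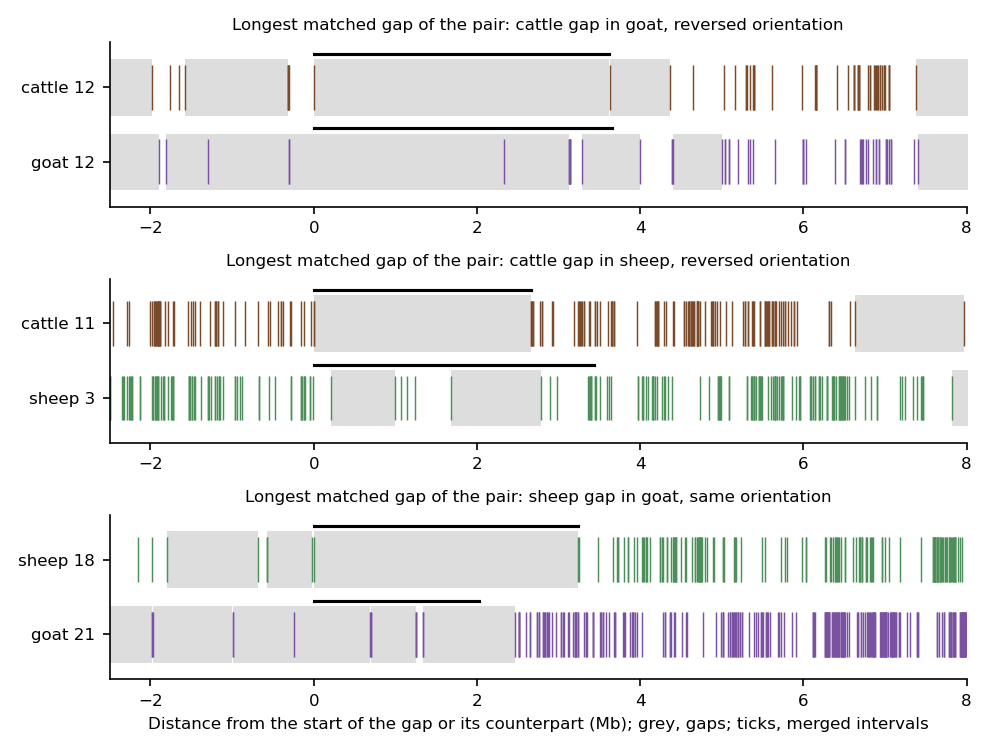
Merged intervals (ticks) and gaps (grey) around the longest matched gap of each pair of species, by distance in Mb from the start of the gap (upper row) or its placed counterpart (lower row, drawn in the orientation of the upper); black bars mark the gap and its counterpart. From top to bottom, a cattle gap in goats, a cattle gap in sheep and a sheep gap in goats are drawn. The counterparts measure 3.65, 3.44 and 2.02 Mb, and 95.8%, 54.5% and 94.9% of them is grey.

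Other placed gaps lay opposite stretches with many intervals. The goat gap on chromosome 7 from 98828589 to 100009926 had 75 intervals in its cattle counterpart, of which 22.6% lay in gaps, and 71 in its sheep counterpart (36.0% in gaps). The sheep gap on chromosome 5 from 7071154 to 9431291 had 71 intervals in cattle (34.1% in gaps). These are not separate regions, since the sheep counterpart of the goat gap overlapped this sheep gap and the cattle counterparts of both overlapped. The flanks matched with correlations between 0.44 and 0.71, and a flank could be moved by up to 500 kb either way in the search, so part of such a counterpart can lie outside the true one.

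Most of the longest gaps could not be placed. The 5 longest gaps of each species gave 30 cases of a gap sought in another species. Flanks were placed in 6 of them, all 6 matched. The nearest matched windows on either side, used without flanks after the data were seen and held to the same limit on length, gave a counterpart in 11 cases, while that of the cattle gap of 3.62 Mb in sheep exceeded the limit. For the sheep gap of 4.11 Mb in cattle and goats and that of 2.99 Mb in goats, the windows on either side fell in crossed order and gave no counterpart. The 11 cases include the 6 whose flanks were placed, so the counts overlap. The farther window of a case lay 3.16 to 9.71 Mb from the gap. At least 50% lay in gaps in 10 of these cases, but no background was computed for placing by windows alone, so the count has nothing to be read against. In the remaining case, the sheep gap of 3.24 Mb on chromosome 18 in cattle, 47.3% lay in gaps. By these windows, the goat gap of 2.94 Mb on chromosome 24 fell on sheep chromosome 23 from 15243593 to 21685673, with 73.1% in gaps and a sheep gap of 1.94 Mb from 17792416 to 19733174. The longest sheep gap, on chromosome 9, was placed by the same windows on goat chromosome 14 from 82960736 to 86445125, where 99.97% lay in gaps, mainly the second longest goat gap. Its own flanks could not be placed.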

How the data were processed

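H3K27ac and H3K4me3 ChIP-seq peak lists of 9 livers were used as the authors deposited them. Per the labels' processing notes, the authors used Trim Galore 0.4.0, FastQC 0.11.2, BWA 0.7.17, Picard 2.25.0 and MACS2 2.1.1. According to the methods, reads were subsampled and narrow peaks called at q of 0.01. Whether the inputs served as background is not stated. The methods name ARS-UCD1.2 as the cattle build, Oar_rambouillet_v1.0 as that of sheep and ARS1 as that of goats, while the processing notes name ARS-UCD1.2 for every sample. Sheep and goat coordinates thus rest on the methods and on the sequence names in the lists. Each deposited list gives the position, the fold enrichment (a ratio to the authors' background), and 2 columns of −log10 values, for the p-value and for the q-value. By the methods, paired-end libraries were brought to a common number of reads before calling. The lists carry no read numbers, so this was not checked, and the number of animals, 2 or 3 per group, sets the precision.

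Rows sharing an interval were joined into 1 peak. Merging and spacing were checked against bedtools 2.31.1, and tests and placing were tested on simulated data. Calculations used Python 3.11.15, numpy 2.4.6, pandas 2.3.3, scipy 1.17.1 and matplotlib 3.10.9. Coordinates are 1-based. Marks, species and left-out animals were compared by exact permutation or sign-flip tests at 0.05, two-sided except for F, with Benjamini-Hochberg adjustment per family (5 planned tests, 11 added tests on left-out animals, 4 tests between species). A count of 0.5 was added before log2 densities.

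For placing, windows of 2 Mb without gaps, every 250 kb, were matched to the counterpart chromosomes in bins of 10 kb and chained in order (blocks of at least 6 windows over 3 Mb). Because of the translocation, chromosomes 9 and 14 (sheep 8 and 9) were searched together. No kept block joined chromosome 9 (sheep 8) with chromosome 14 (sheep 9), so no gap was placed across them. Intervals of at least 2 libraries were used. Flanks of 2 Mb were then placed within 500 kb of the expected place at a correlation of at least 0.4, and counterparts over 3 times longer or shorter were dropped. Named gaps were the 5 longest per species, those beside the threshold, the longest series, and per pair of species, in both directions, the 3 longest matched and the one with the most intervals opposite. The gaps and all tests were chosen with earlier results of these data known.

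Libraries with the same letter and species are from 1 liver by their titles, which pairs the marks. Deviations of the log2 number of long stretches from the group mean correlated between marks over 8 animals with Pearson's r = 0.12 (exact permutation, p = 0.806, 72 arrangements) and Spearman's rho = 0.34 (exact permutation, p = 0.528), and r was -0.03 without the 2 animals farthest from the median.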

Additional observations from a re-analysis of the deposited data

Results flagged for a closer look

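Outside the autosomes, the X chromosome also held gaps, which the comparisons do not use. In cattle it had 47 gaps of at least 500 kb, which covered 32.6% of its span, compared with 24.6% of the autosomal span. In sheep it had 61, which covered 40.6%, compared with 24.5%. The longest X gaps measured 2.33 Mb in cattle and 3.30 Mb in sheep, below the longest autosomal gaps of each species. The goat X chromosome was not analysed here.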

How the results depend on the processing

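A minimum of 250 kb gave 1809, 1968 and 1670 gaps in cattle, sheep and goats, and one of 1 Mb gave 197, 208 and 177. The other 8 alternatives in each species (stricter peaks, intervals of at least 2 libraries, equal list sizes, either mark alone, each animal left out, where leaving out A is the set of B and C alone) stayed within 1.5 times the reported number. The log2 difference between marks in long stretches was -0.0514 (exact permutation, p = 0.257) at 1 Mb, -0.0292 (p = 0.294, exact) with −log10 q of at least 5, and 0.0368 (p = 0.011, exact) with the 20000 strongest peaks. Paired within animals as a replicate block, it was -0.12 (exact sign flips, p = 0.0156), and the block changed no call. For left-out peaks, the difference in density between marks was 0.55 (p = 0.0313, exact) at 250 kb, -0.0322 at least 50 kb from edges and -1.43 against peaks away from other animals' intervals, and the strength difference was 0.19 against the latter. Left-out density and the difference between species kept direction and side of the threshold in every alternative run. With −log10 q of at least 5, single-library shares of border intervals were 35.5% in cattle and 35.5% in sheep, against 31.7% and 28.1% of all intervals, so the difference in cattle shrank. The share of placed cattle gaps matched in sheep was 56.6% with flanks of 1 Mb. Counting gaps of at least 250 kb in the counterpart raised the matched shares to 88.1% (cattle in sheep), 86.9% (cattle in goats), 89.6% (sheep in cattle), 87.4% (sheep in goats), 94.7% (goats in cattle) and 94.1% (goats in sheep), where placed stretches gave 26.4% to 38.4%. The causes of these shifts were not tested. The references by peaks away from other animals' intervals, the tests of each mark alone, of edges and of both marks, placing by intervals of any library, and placed stretches of 750 kb and 1 Mb or in both species were chosen after seeing the data. The lists hold no read numbers, so a stretch without a peak is one without a peak in these lists.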
